A study of Homo sapiens with 60 samples.

Results

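Glycolysis and hypoxia-response genes were followed as a set of 36 named genes in SW1783 cells, an established human astrocytoma line, after 24 h with water extracts used in herbal medicine. Each of the 36 symbols matched 1 gene of the 60675 in the count table, and all 36 were among the 17190 genes tested after a filter on low counts. Cells received the vehicle (DMSO, labelled 0.1%, although the design text of the series gives 2%) or an extract, given at a high (500 µg/mL), a medium (100 µg/mL) or a low dose (20 µg/mL). The labels give no DMSO content for the extracts. The single herbs were Citri Unshius Pericarpium (mandarin peel), Cimicifugae Rhizoma, Bupleuri Radix and Aconiti Lateralis Radix Preparata (processed aconite root), and the formulas were Yijung-tang, Banhasasim-tang and Bojungikgi-tang. The vehicle and each dose of the first 6 extracts had 3 libraries, and Bojungikgi-tang had 1 library per dose. The labels name no genetic change in the cells. Culture was in L-15 medium, which is formulated with galactose and pyruvate in place of glucose.

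Glycolysis converts glucose to pyruvate in the cytosol: glucose transporters admit the sugar, hexokinases trap it, and later enzymes yield ATP and pyruvate, which lactate dehydrogenase can reduce to lactate for export. When oxygen is short, prolyl hydroxylases stop marking the hypoxia-inducible factors (HIF) for destruction, and HIF raises the transcription of most glycolytic genes together with genes for new vessels, mitochondrial removal, pH control and its own feedback. Tumours of glial origin are known for a high rate of glycolysis, and several of these genes also answer to nutrient and stress pathways that do not need HIF.

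Library totals ran from 18.9 to 36.4 M counts (M, mega). The share of mitochondrially encoded transcripts averaged 5.14% ± 0.134 in the vehicle (SD, n = 3). It was 7.367% in replicate 3 of the low dose of Citri Unshius Pericarpium and 7.695% in replicate 3 of the high dose of Cimicifugae Rhizoma, a pair of libraries that lie apart from their own groups. Values without both are given beside the main results of these groups. The labels do not say that replicates came from separate cultures, so p-values measure a spread that may be technical. Of 9 astrocyte and glioma markers, VIM and CD44 were abundant (medians 4447 and 2776 CPM, counts per M counts of the library) and SLC1A3 and NES were lower (33.1 and 9.01 CPM). Marker levels use plain library totals, whereas levels of members are TMM-scaled. GFAP, S100B, AQP4, ALDH1L1 and SOX2 stayed at or below 0.418 CPM in each of the 57 replicated libraries, so these markers were absent or near 0.

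HIF binds the letters ACGTG or GCGTG, so the 250 bases before each listed start were searched for both on either strand, in the promoter table of RefSeq (GRCh38.p14). The table was matched for 32 of the 36 members, and SLC2A3, NDRG1, BNIP3L and VEGFA were not used here. ACGTG was in 24 of the 61 windows of members (39.3%) and in 18.5% of all 35116 windows. GCGTG was in 32.8% of the windows of members and 32.2% of all. CACGTG, which holds ACGTG on both strands and is counted on each, was in 14.8% and 6.34%. The members were listed as glycolysis and hypoxia-response genes, and windows of the same gene can overlap, so these shares are no test. A match is a description of the letters and shows no binding. The windows of 4 members are printed: LDHA and PGK1, which fell with Aconiti Lateralis Radix Preparata and hold several matches, and HKDC1 and EGLN3, the members with the largest rise and the largest fall, which hold none. They are LDHA (chr11:18394313-18394562, plus strand, 5 matches counted by strand), PGK1 (chrX:78103998-78104247, plus strand, 3 matches), HKDC1 (chr10:69220082-69220331, plus strand, 0 matches) and EGLN3 (chr14:33951075-33951324, minus strand, 0 matches). A second listed window of LDHA holds 1 match, and members that rose hold matches too: the HK2 windows hold 3 and 6 and the BHLHE40 window 4. Each is written 5′ to 3′, and capitals mark the matches.
LDHA: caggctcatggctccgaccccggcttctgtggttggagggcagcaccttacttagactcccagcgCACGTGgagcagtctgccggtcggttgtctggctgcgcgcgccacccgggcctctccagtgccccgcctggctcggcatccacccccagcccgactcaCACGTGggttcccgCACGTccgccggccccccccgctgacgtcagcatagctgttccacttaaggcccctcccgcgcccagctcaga
PGK1: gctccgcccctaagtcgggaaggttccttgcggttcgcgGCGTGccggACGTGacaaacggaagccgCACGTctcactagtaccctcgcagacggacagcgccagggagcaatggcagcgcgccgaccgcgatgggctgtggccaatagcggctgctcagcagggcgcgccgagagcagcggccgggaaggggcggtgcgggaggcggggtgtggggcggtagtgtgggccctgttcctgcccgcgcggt
HKDC1: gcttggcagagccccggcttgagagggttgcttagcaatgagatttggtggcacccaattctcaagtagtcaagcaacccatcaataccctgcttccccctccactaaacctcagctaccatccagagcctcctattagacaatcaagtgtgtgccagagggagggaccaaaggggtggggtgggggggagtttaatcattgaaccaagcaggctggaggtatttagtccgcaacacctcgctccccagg
EGLN3: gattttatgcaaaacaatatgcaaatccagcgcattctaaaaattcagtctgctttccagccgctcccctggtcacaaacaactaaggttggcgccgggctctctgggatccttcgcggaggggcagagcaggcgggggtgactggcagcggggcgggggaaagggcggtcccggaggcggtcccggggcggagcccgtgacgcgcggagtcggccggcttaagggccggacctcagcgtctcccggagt

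In the vehicle, levels per kilobase of exon set the common isoforms far above the rare ones. GAPDH, the enzyme that couples sugar oxidation to NADH, stood at 1665 ± 36.3 CPM per kb (SD, n = 3) and the enolase ENO1 at 1151 ± 10.3, whereas the neuronal enolase ENO2 was at 16.1 ± 0.485. The aldolase ALDOA was at 623 ± 9.72 CPM per kb and its brain isoform ALDOC at 3.23 ± 0.212. Among hexokinases HK1 led with 73.9 ± 1.77 CPM per kb, followed by the insulin- and HIF-responsive HK2 with 8.896 ± 0.29 and by HKDC1 with 0.567 ± 0.125. PFKL and PFKP, the liver and platelet forms of phosphofructokinase, were at 50.8 ± 1.05 and 51.2 ± 0.401 CPM per kb and did not differ beyond their spread, and the muscle form PFKM was at 8.75 ± 0.416. Abundant enzymes such as GAPDH, LDHA and PGAM1 have processed pseudogenes, among which the counting could divide reads. PFKM and SLC16A3 overlap the exons of SENP1 and CSNK1D on the other strand, genes at 103% and 54% of their own mean levels, so their values are uncertain.

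The high dose of Aconiti Lateralis Radix Preparata called 32 of the 36 members, 14 higher and 18 lower than the vehicle, where 60.4% of all genes tested were called at an adjusted p under 0.05. The hexokinases HKDC1, HK1 and HK2, the glucose transporters SLC2A3 and SLC2A1, the secreted factors ADM and VEGFA and the stress gene NDRG1 rose, while most enzymes from aldolase to lactate dehydrogenase fell with the regulators of phosphofructokinase. The median log2 fold change of the members was -0.25, against 0.01 for all genes tested, and 17 members changed by 1.5-fold or more (8 higher, 9 lower, beside 23.6% of all genes). In bulk RNA, fewer cells with a transcript and less of it per cell cannot be told apart. The extract, its DMSO and its set of sample codes, which differs from that of the vehicle, cannot be told apart either, so the high dose was also compared with the low dose of the same set. There, 32 members were called as well (14 higher, 18 lower), beside 57.8% of all genes. Both comparisons share the high-dose libraries. Values against the vehicle follow by role, with edgeR's quasi-likelihood test and Benjamini-Hochberg adjustment over all genes.

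HKDC1, a hexokinase-like protein that is little expressed in most tissues, was at 1.81, 2.63 and 1.84 CPM in the vehicle and at 52.8, 59.2 and 58.3 CPM at the high dose. The groups were far apart, with a log2 fold change of 4.74 ± 0.133 (SE, n = 3 per group), 26.8-fold (adjusted p = 1.8e-33). Per kilobase it reached 15.4 ± 0.946 CPM (SD), below HK2 at 20.2 ± 0.747 and HK1 at 86.4 ± 0.889. HK2, the hexokinase bound to mitochondria in many tumours, rose by 1.18 ± 0.0397 on the log2 scale, from 52.9 ± 1.73 to 120.3 ± 4.44 CPM, and HK1 by 0.22 ± 0.0322. SLC2A3, the high-affinity neuronal glucose transporter, was at 34.3, 33.4 and 33.5 CPM in the vehicle and at 79.6, 75.8 and 79.6 CPM at the high dose. Every treated library lay above every vehicle library, a log2 change of 1.21 ± 0.037 (adjusted p = 5.56e-32). The basal transporter SLC2A1 rose by 0.19 ± 0.0361 and the lactate exporter SLC16A3 fell by 0.49 on the log2 scale.

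Of the 7 enzymes of upper glycolysis, 4 fell (ALDOC, TPI1, ALDOA and GPI), PFKP and PFKM rose, and PFKL was not called. ALDOC fell by 0.80 on the log2 scale, from 6.996, 6.59 and 6.13 CPM to 4.31, 3.59 and 3.48 CPM without overlap, and PFKP rose by 0.52 ± 0.0293. PFKFB3 and PFKFB4 make fructose 2,6-bisphosphate, the activator of phosphofructokinase, and both fell. PFKFB4 was at 29.5, 26.6 and 27.4 CPM in the vehicle and 14.8, 13.9 and 13.6 CPM at the high dose, with no overlap and a log2 change of -0.99 ± 0.0608 (adjusted p = 1.3e-19). PFKFB3 went from 94.7, 95.2 and 92.4 CPM to 52.5, 52.05 and 53.5 CPM, again without overlap (log2 change -0.84 ± 0.0387, adjusted p = 1.54e-24).

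In lower glycolysis, 5 of 6 enzymes fell and 1 rose. PGAM1 and PGK1, which handle the phosphoglycerate steps, fell by 0.71 and 0.67 on the log2 scale, ENO1 by 0.42, and GAPDH and PKM by 0.36 and 0.36. ENO2 rose by 0.55 ± 0.0439, from 51.04 ± 1.53 to 74.7 ± 2.16 CPM, so the enolases moved in opposite directions. LDHA, which makes lactate from pyruvate, was at 1912, 1830.1 and 1853 CPM in the vehicle and at 973, 954 and 943 CPM at the high dose. Its lowest vehicle library was far above its highest treated library, a log2 change of -0.96 ± 0.0272 (adjusted p = 2.33e-33). PDK1, the kinase that holds pyruvate back from oxidation in mitochondria, fell by 0.49 on the log2 scale.

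The secreted factors did not fall with these enzymes. ADM, which encodes the vasodilator adrenomedullin, was at 10.6, 10.3 and 9.51 CPM in the vehicle and at 25.9, 27.1 and 25.4 CPM at the high dose, a log2 rise of 1.36 ± 0.0751 (adjusted p = 1.72e-21) without overlap. VEGFA, the main vessel growth factor, went from 282, 296 and 306 CPM to 591, 571 and 588 CPM (log2 change 0.99 ± 0.0312, adjusted p = 3.03e-31), also without overlap. ANGPTL4, an inhibitor of lipoprotein lipase, was not called at 18.04 ± 0.663 CPM against 17.6 ± 2.04 CPM in the vehicle (log2 change 0.04 ± 0.0705). NDRG1, a gene that answers to hypoxia, iron loss and differentiation, was at 36.6, 36.01 and 35.6 CPM in the vehicle and at 189, 199.6 and 202 CPM at the high dose. This was the second largest rise among the members, 2.45 ± 0.0526 on the log2 scale or 5.46-fold (adjusted p = 2.5e-38).

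Feedback, matrix and mitochondrial genes were split. EGLN3, an oxygen-sensing prolyl hydroxylase that HIF induces, was at 6.49, 5.94 and 6.44 CPM in the vehicle and at 0.863, 1.08 and 0.928 CPM at the high dose. The groups were apart by a log2 change of -2.70 ± 0.153, a 6.49-fold fall (adjusted p = 4.81e-21). P4HA1, which hydroxylates collagen, fell by 0.48 on the log2 scale, and the histone demethylase KDM3A rose by 0.42 ± 0.0417. BNIP3, a receptor for mitophagy, fell by 0.62 and the cell-surface carbonic anhydrase CA9 by 0.65, whereas BNIP3L (-0.05 ± 0.0371) and ANKRD37 (-0.24 ± 0.222) were not called. The transcriptional repressors MXI1, an antagonist of MYC, and BHLHE40, a clock and hypoxia factor, rose by 1.16 ± 0.0695 and 1.02 ± 0.0498. The count stayed at 32 when each single library of the 2 groups was left out in turn.

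**Figure D1:**
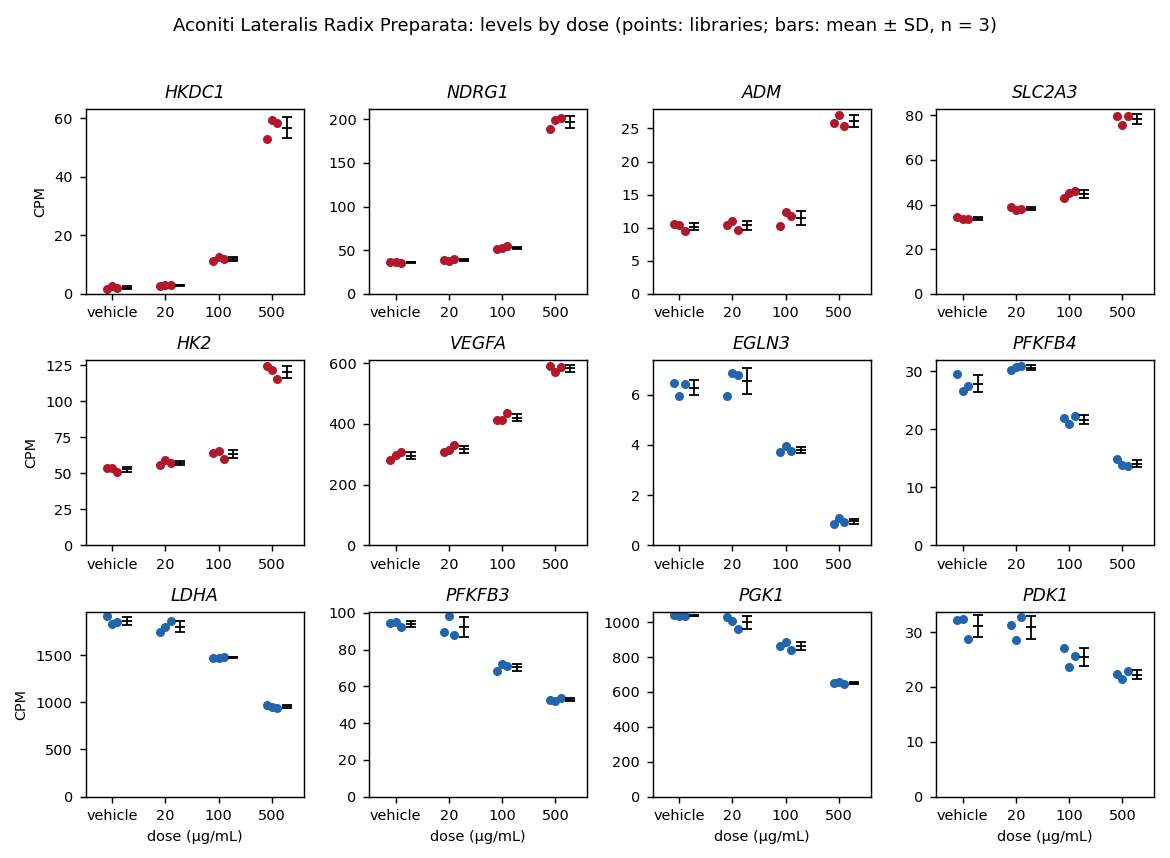
CPM (y axis) of 12 members in the vehicle and at 20, 100 and 500 µg/mL of Aconiti (x axis); points are libraries and bars the mean ± SD (n = 3). The 6 members in red lie highest at 500 µg/mL and the 6 in blue lowest, with EGLN3 at 6.29 CPM in the vehicle and 0.956 CPM at 500 µg/mL.

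The change grew with dose, as the levels by dose of Aconiti Lateralis Radix Preparata show. At the medium dose 29 members were called, 9 higher and 20 lower (31.1% of all genes), and at the low dose 3 were called, all higher (2.19% of all genes, 1.15% higher). The means moved in 1 direction with dose for 31 members, upward for 11 and downward for 20. The same count was not made over all genes, so it is not shown to be particular to the members. HKDC1 was at 2.73, 2.99 and 2.87 CPM at the low dose and at 11.1, 12.5 and 11.9 CPM at the medium dose. Its medium-dose libraries thus stood above the low-dose libraries and below the high-dose libraries, and the log2 change of the medium dose against the vehicle was 2.48 ± 0.15. EGLN3 was at 5.94, 6.89 and 6.81 CPM at the low dose, overlapping the vehicle, and at 3.71, 3.95 and 3.77 CPM at the medium dose, below it. LDHA was at 1743, 1798 and 1859.9 CPM at the low dose and at 1471, 1469 and 1484 CPM at the medium dose, below each vehicle library. ADM, by contrast, was at 10.3, 12.4 and 11.7 CPM at the medium dose, overlapping the vehicle, and was not called there (0.18 ± 0.084). The members called at the low dose were SLC2A3 (0.17 ± 0.0392), ENO2 (0.22 ± 0.0447) and PFKP (0.11 ± 0.0296), and without the third low-dose library 1 member was called.

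The 17 genes of hexokinase, upper and lower glycolysis and LDHA took 1.632% ± 0.00757 (SD, n = 3) of all counts in the vehicle and 1.126% ± 0.00751 at the high dose of Aconiti Lateralis Radix Preparata. Their share was 1.574% ± 0.037 at the low and 1.35% ± 0.002 at the medium dose. In the other 15 replicated extract groups the group means of this share lay between 1.612% and 1.701%. Mitochondrially encoded genes moved as well, to 6.96% ± 0.559 at the low, 10.7% ± 0.162 at the medium and 9.19% ± 0.169 at the high dose. Marker lists of other cell types moved in both directions, in CPM of plain library totals. The sum of 5 fibroblast genes was 5591 to 5855 CPM in the vehicle and 1316 to 1422 CPM at the high dose. That of 6 epithelial genes was 241 to 251 and 82.4 to 86.3 CPM. Neuron genes (6) also fell, from 71.3 to 73.8 CPM to 47.9 to 50.4 CPM. Higher sums were those of 5 oligodendrocyte genes (6.82 to 8.59 and 12.8 to 13.2 CPM). Myeloid genes (4) rose too (152 to 160 and 180 to 191 CPM), and 4 endothelial genes overlapped (28.4 to 29.9 and 28.3 to 30.8 CPM). All 5 fibroblast genes had a median above 1 CPM over the libraries, with COL1A1 at 3253 CPM. In the epithelial list KRT8 and KRT18 carried the sum, and EPCAM and KRT5 had a median of 0. The part of these shifts in the result was not tested.

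**Figure D2:**
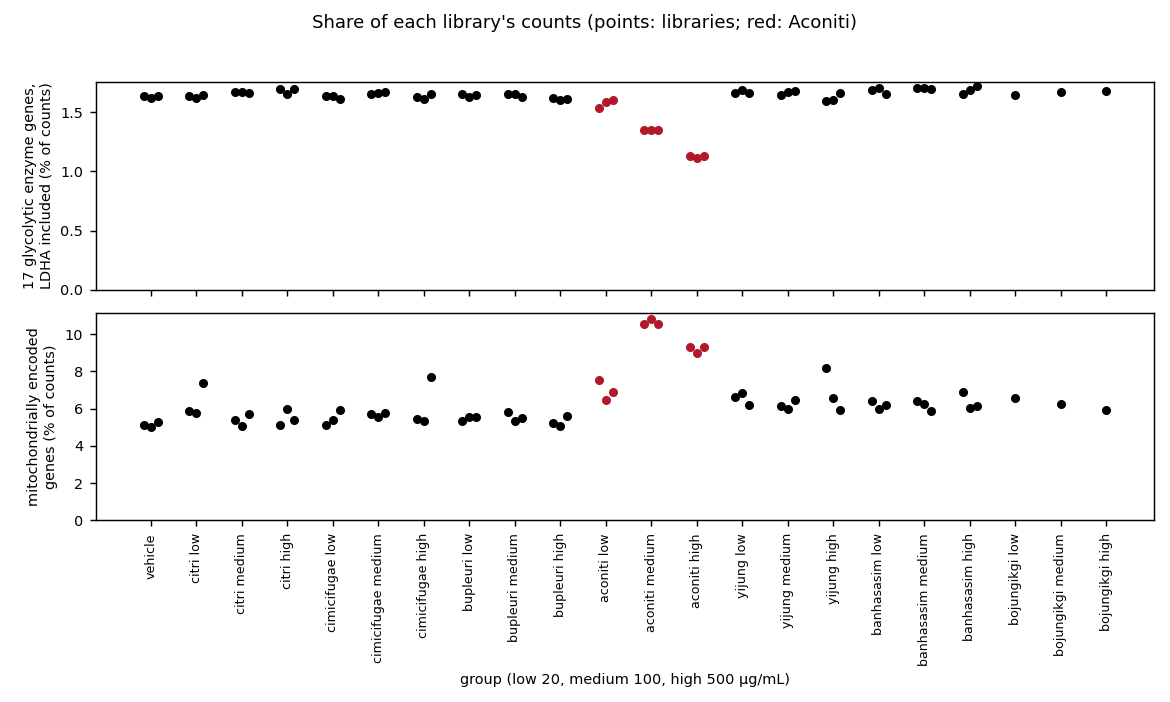
Share of each library's counts (y axes, %) taken by the 17 glycolytic enzyme genes, LDHA included (top), and by mitochondrially encoded genes (bottom), for each group (x axis); points are libraries. The Aconiti groups, in red, fall from a mean of 1.574% to 1.126% with dose in the upper panel, and the other groups lie near the vehicle at 1.632%.

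Cimicifugae Rhizoma called 20 members at the high dose, 10 higher and 10 lower than the vehicle, beside 32.5% of all genes. The largest rises were in ANGPTL4, ALDOC, NDRG1, VEGFA and MXI1, which alone passed 1.5-fold (4.23% of all genes), and the falls included LDHA and most of lower glycolysis. Without both libraries that stand apart, the count was also 20 (10 in each direction), with GAPDH lost and BNIP3L gained. Over all genes, 4768 were called in that fit and 5592 with all libraries. NDRG1 was then at 0.58 ± 0.0483 on the log2 scale without both, under 1.5-fold. The median over the members was 0.00 on the log2 scale. ANGPTL4 was at 17.6, 15.6 and 19.7 CPM in the vehicle and at 40.1, 37.3 and 37.3 CPM at the high dose, with no overlap (log2 change 1.12 ± 0.0628, adjusted p = 1.24e-19). ALDOC was at 11.9, 12.7 and 13.7 CPM at the high dose, above every vehicle library (0.96 ± 0.0842, adjusted p = 6.85e-13). VEGFA was at 455, 456 and 459 CPM, also above every vehicle library (0.63 ± 0.0311, adjusted p = 1.14e-21). NDRG1 was at 52.96, 54.4 and 63.6 CPM (0.66 ± 0.0549, adjusted p = 1.07e-13), MXI1 rose by 0.59 ± 0.0714 and SLC2A3 by 0.32 ± 0.0381. Without both libraries ANGPTL4 was at 1.15 ± 0.0673, ALDOC at 0.90 ± 0.0917, VEGFA at 0.63 ± 0.0335, MXI1 at 0.60 ± 0.079, SLC2A3 at 0.34 ± 0.0433 and LDHA at -0.19 ± 0.0293, all called.

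Among the members that fell with Cimicifugae Rhizoma, LDHA was at 1599, 1659 and 1583 CPM, below every vehicle library (log2 change -0.21 ± 0.0269, adjusted p = 2.31e-08). PGK1 was at 929.9, 944 and 814 CPM, PGAM1 at 466, 468 and 381 CPM and SLC16A3 at 311, 296 and 210.2 CPM. In these 3 genes the lowest value was that of the third library, which stands apart. The log2 change of PGAM1 was -0.33 ± 0.0522 with all libraries and -0.24 ± 0.0372 without the libraries that stand apart, and that of PGK1 -0.21 ± 0.0381 and -0.15 ± 0.0292, each called both times. SLC16A3 moved from -0.31 ± 0.0828 to -0.15 ± 0.0535 against the vehicle (adjusted p = 0.0266). Without only the third high-dose library its adjusted p was 0.121, and against the low dose without both it was 0.393. GAPDH was called higher with all libraries (0.14 ± 0.0487) and not without both (0.05 ± 0.0382). Against the low dose, 22 members were called (9 higher, 13 lower, 25.1% of all genes). A fit of only the vehicle and this group called 10 members, 7 higher and 3 lower, beside 2866 genes in all.

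At the medium dose of Cimicifugae Rhizoma all 13 members called were higher than the vehicle (6.63% of all genes, 2.72% higher), and at the low dose all 3 (1.27%, 0.372% higher), a count of 1 without the first vehicle or the second low-dose library. ALDOC was at 10.5, 9.77 and 10.3 CPM at the medium dose, above every vehicle library and below every high-dose library (0.63 ± 0.0866). BNIP3 was at 148, 150.4 and 153 CPM at the medium dose against 117, 120.0 and 125 CPM in the vehicle, without overlap (0.32 ± 0.0471). At the high dose BNIP3 was at 120.2, 119.9 and 106 CPM, which overlapped the vehicle and was not called (-0.07 ± 0.0477). EGLN3 likewise rose at the medium dose (0.38 ± 0.0977) and was at -0.14 ± 0.103 at the high dose, not called. ANGPTL4 was at 18.2, 18.9 and 20.1 CPM at the medium dose, overlapping the vehicle (0.12 ± 0.0679, not called).

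Citri Unshius Pericarpium called 18 members at the high dose, 17 higher and 1 lower, beside 21.6% of all genes. The rises were small apart from ALDOC and NDRG1, and the median over the members was 0.10 on the log2 scale against 0.00 for all genes. ALDOC was at 11.8, 10.8 and 11.7 CPM, above every vehicle library, with a log2 change of 0.80 ± 0.0858 (adjusted p = 4.41e-10), the only member past 1.5-fold (2.61% of all genes). NDRG1 was at 52.5, 54.99 and 53.7 CPM (0.57 ± 0.0553, adjusted p = 2.24e-11) and SLC2A3 at 44.01, 43.02 and 42.9 CPM (0.36 ± 0.0382, adjusted p = 3.12e-10), both above the vehicle in each library. MXI1 rose by 0.34 ± 0.0736 to 12.8 ± 0.383 CPM. SLC2A1 was at 148, 148 and 156 CPM against 169.6, 166 and 163 CPM in the vehicle and was the 1 member that fell (-0.14 ± 0.0362, adjusted p = 0.00251).

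By role, both regulators of phosphofructokinase and both transcription factors rose with Citri Unshius Pericarpium, as did 4 of the 5 mitochondrial, pH and stress genes (BNIP3, BNIP3L, CA9 and NDRG1). Of the 6 enzymes of lower glycolysis only ENO2 was called (0.30 ± 0.0439). Against the low dose 18 members were called, 15 higher and 3 lower (18.2% of all genes). The low-dose group holds a library that stands apart: without both such libraries BNIP3 (0.06 ± 0.041), P4HA1 (0.09 ± 0.0352) and PFKFB3 (0.06 ± 0.0332) were not called against the low dose. At the medium dose 6 members were called (2.07% of all genes, 0.838% higher) and at the low dose PFKFB4 (0.37 ± 0.0529) and EGLN3 (0.40 ± 0.0988), beside 1.88% of all genes (1.16% higher). Without both libraries these were at 0.39 ± 0.0587 and 0.52 ± 0.101, both called. All of these were higher than the vehicle, and the low-dose count was 1 without the first or second vehicle or the first low-dose library. A fit of only the compared groups called 10 members at the medium dose and 0 at the low dose, beside 727 and 0 genes in all.

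Yijung-tang called 18 members at the high dose, 9 in each direction, beside 32% of all genes. ANGPTL4, NDRG1, VEGFA and ALDOC rose most, ANGPTL4 alone past 1.5-fold (4.85% of all genes), and BNIP3, PDK1, SLC2A1 and PGAM1 fell most. ANGPTL4 was at 32.4, 27.9 and 32.6 CPM, above every vehicle library (log2 change 0.81 ± 0.0649, adjusted p = 4.54e-14). NDRG1 was at 55.4, 50.7 and 53.4 CPM (0.56 ± 0.0557, adjusted p = 3.66e-11) and VEGFA at 395, 382 and 378 CPM (0.38 ± 0.0312, adjusted p = 7.68e-14), also without overlap. ALDOC was at 7.94, 8.497 and 8.11 CPM, just above the vehicle (0.32 ± 0.0907, adjusted p = 0.00539). Without the third low-dose library the rise of ALDOC against the low dose was not called (0.22 ± 0.0929, adjusted p = 0.098).

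BNIP3 was at 87.5, 91.1 and 91.00 CPM with the high dose of Yijung-tang, below each vehicle library (log2 change -0.43 ± 0.0489, adjusted p = 1.49e-09). PDK1 was at 23.3, 26.01 and 25.8 CPM against 32.3, 32.3 and 28.8 CPM (-0.31 ± 0.0669, adjusted p = 0.000269) and SLC2A1 at 133, 141 and 145 CPM (-0.25 ± 0.0365, adjusted p = 3.35e-07). In both genes the groups did not overlap. PGAM1 was at 458, 467 and 469 CPM (-0.25 ± 0.0522) and PGK1 at 889.7, 936 and 876 CPM (-0.21 ± 0.0381), below every vehicle library. Mitochondrially encoded genes took up to 8.209% of the counts in this group, and their part in the result was not tested.

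At the medium dose of Yijung-tang 4 members were called (6.28% of all genes, 2.73% higher) and at the low dose 5 (6.38%, 2.72% higher), all of them higher. PFKFB4 (0.31 ± 0.0519 and 0.32 ± 0.0521), NDRG1 (0.26 ± 0.0555 and 0.19 ± 0.0559), ENO2 (0.16 ± 0.0436 and 0.16 ± 0.0438) and VEGFA (0.23 ± 0.0311 and 0.16 ± 0.0312) were called at both doses, and GPI at the low dose (0.11 ± 0.0309). The low-dose count was 2 without the first vehicle or the first low-dose library and 3 without the second or the third vehicle or the second low-dose library. Against the low dose 18 members were called at the high dose, 7 higher and 11 lower (21.7% of all genes).

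Banhasasim-tang called 12 members at the high dose, all of them higher than the vehicle, beside 16.8% of all genes (7.99% higher), and none reached 1.5-fold (1.98% of all genes). PFKFB4 was at 40.6, 39.2 and 40.4 CPM against 29.5, 26.6 and 27.4 CPM in the vehicle, a log2 change of 0.53 ± 0.0515 (adjusted p = 2.75e-11) without overlap. It was at 39.4, 37.1 and 38.9 CPM at the low dose too, and the high dose was not called against the low dose (0.06 ± 0.0483). ENO2 was at 73.05, 69.7 and 73.6 CPM, above every vehicle library (0.50 ± 0.0431, adjusted p = 6.61e-13), and NDRG1 at 51.2, 48.8 and 48.98 CPM (0.46 ± 0.0551, adjusted p = 6.89e-09). BNIP3 was at 137, 139 and 146 CPM and HK2 at 61.1, 61.9 and 62.00 CPM, each above the vehicle (0.22 ± 0.047 and 0.22 ± 0.0405). Against the low dose, BNIP3 was not called without the third high-dose, the first low-dose or the third low-dose library (adjusted p = 0.0959 to 0.151), nor HK2 without the third low-dose library (adjusted p = 0.0773).

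In upper glycolysis 5 of 7 members rose with the high dose of Banhasasim-tang against the vehicle: GPI (0.10 ± 0.031), PFKP (0.14 ± 0.0293), ALDOA (0.11 ± 0.0302), ALDOC (0.36 ± 0.0879) and TPI1 (0.10 ± 0.0253). Of these, only PFKP was also called against the low dose of the same code set. The medium dose called 11 members (8.32% of all genes, 3.8% higher) and the low dose 6 (5.75%, 2.62% higher), all of them higher. Against the low dose 6 members were called at the high dose, all higher (6.67% of all genes, 3.08% higher): ANGPTL4 (0.32 ± 0.0658), ENO2 (0.30 ± 0.0416), NDRG1 (0.27 ± 0.0528), BNIP3 (0.16 ± 0.0462), HK2 (0.14 ± 0.0394) and PFKP (0.14 ± 0.029). ANGPTL4 was at 16.1, 15.1 and 14.8 CPM at the low dose and at 18.6, 19.2 and 19.4 CPM at the high dose, which overlapped the vehicle.

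Bupleuri Radix changed 9 members at the high dose (8 higher, 1 lower), the fewest of the 6 extracts, beside 7.02% of all genes, and none by 1.5-fold (0.884% of all genes). ANGPTL4 was at 26.6, 24.6 and 25.2 CPM, above every vehicle library (log2 change 0.54 ± 0.066, adjusted p = 4.42e-08), and VEGFA at 355, 362 and 364 CPM (0.29 ± 0.0312, adjusted p = 1.58e-09). ENO2 was at 59.7, 62.9 and 61.4 CPM (0.26 ± 0.0441, adjusted p = 2.85e-05) and PFKP at 222, 218 and 221 CPM (0.19 ± 0.0294, adjusted p = 7.52e-06). Neither overlapped the vehicle, but the rise of ENO2 against the low dose was not called when any 1 of 5 libraries of those groups was left out (adjusted p = 0.0554 to 0.202). P4HA1, at 209, 211 and 214 CPM against 246, 235 and 227 CPM, was the 1 member that fell (-0.16 ± 0.0388, adjusted p = 0.00474). Without the first vehicle library its adjusted p was 0.076 and the count of members called was 5. The medium dose called SLC2A1 (0.15 ± 0.0361) and HK2 (0.23 ± 0.0414) beside 0.413% of all genes (0.204% higher), and the low dose PFKFB4 (0.27 ± 0.0533) beside 0.0756% (0.0175% higher). Without any 1 library the medium-dose count was 1, and without the second or the third low-dose or vehicle library the low-dose count was 0. High against low dose called 6 members (4 higher, 2 lower, 4.37% of all genes).

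**Figure D3:**
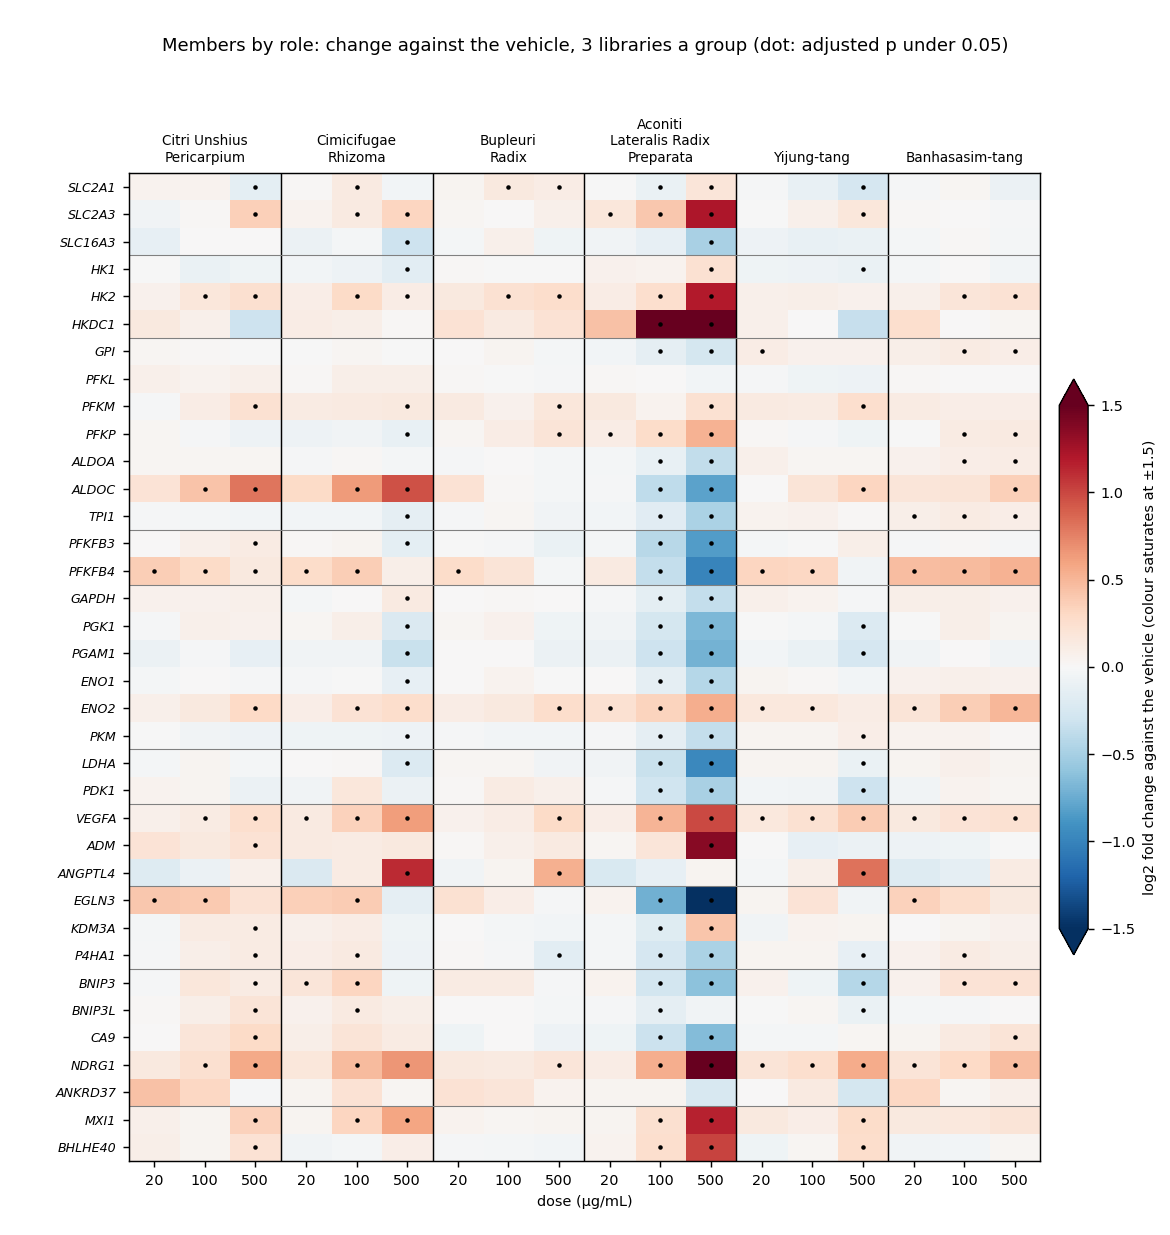
Log2 fold change against the vehicle (colour, saturating at ±1.5) of the 36 members (down the side, by role) for 6 extracts at 20, 100 and 500 µg/mL (across, n = 3 per group); a dot marks an adjusted p under 0.05. NDRG1 and VEGFA carry a dot at 500 µg/mL in all 6 extracts, and Aconiti at 500 µg/mL has 32 dots.

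Read gene by gene at the high dose, NDRG1 and VEGFA were called higher in all 6 extracts, and ANKRD37 and PFKL in none, as the map of changes by role shows. All of these comparisons share the 3 vehicle libraries, so the values are set side by side. For NDRG1 and VEGFA the vehicle had the lowest mean of the 19 groups (36.08 and 295 CPM). The same held for HK2, ENO2 and MXI1 (52.9, 51.04 and 10.1 CPM). A rise of any of these members that several extracts share cannot be told apart from a difference between the vehicle libraries and the code sets. From low to high dose NDRG1 was called higher with each extract except Bupleuri Radix. VEGFA was not called from low to high dose with Banhasasim-tang. Of the 36 members, 15 were called higher in some and lower in other extracts, 12 only higher and 7 only lower. Such counts across extracts were not made over all genes, of which 7.02% (Bupleuri Radix) to 60.4% (Aconiti Lateralis Radix Preparata) were called per extract. ENO2, HK2 and PFKM rose in 5 extracts, and their values that were not called were 0.11 ± 0.0447 for ENO2 and 0.07 ± 0.0416 for HK2, both with Yijung-tang, and 0.10 ± 0.0527 for PFKM with Banhasasim-tang. LDHA, PGK1 and PGAM1 fell with Cimicifugae Rhizoma, Aconiti Lateralis Radix Preparata and Yijung-tang and were not called with the others. ALDOC rose in 4 extracts and fell in 1, with group means from 3.79 ± 0.455 CPM (Aconiti Lateralis Radix Preparata) to 12.8 ± 0.883 CPM (Cimicifugae Rhizoma). ANGPTL4 had group means of 38.2 ± 1.63 CPM with Cimicifugae Rhizoma, 30.95 ± 2.68 with Yijung-tang and 25.4 ± 1.06 with Bupleuri Radix. It was not called with the other 3, at 19.1 ± 0.408 (Banhasasim-tang), 18.4 ± 1.76 (Citri Unshius Pericarpium) and 18.04 ± 0.663 CPM (Aconiti Lateralis Radix Preparata).

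PFKFB4 was called higher at the low dose in 5 of 6 extracts, by 0.27 ± 0.0533 (Bupleuri Radix) to 0.47 ± 0.0517 (Banhasasim-tang) on the log2 scale, and was 0.14 ± 0.0545 with Aconiti Lateralis Radix Preparata, not called. From low to high dose it then fell in 5 extracts, by 0.18 with Cimicifugae Rhizoma to 1.12 with Aconiti Lateralis Radix Preparata on the log2 scale. With Yijung-tang, for example, it was at 34.2, 37.5 and 32.9 CPM at the low dose and at 25.4, 25.7 and 29.4 CPM at the high dose, which overlapped the vehicle. A rise at 20 µg/mL that extracts of several code sets share cannot be told apart from a difference between the vehicle libraries and those sets.

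**Figure D4:**
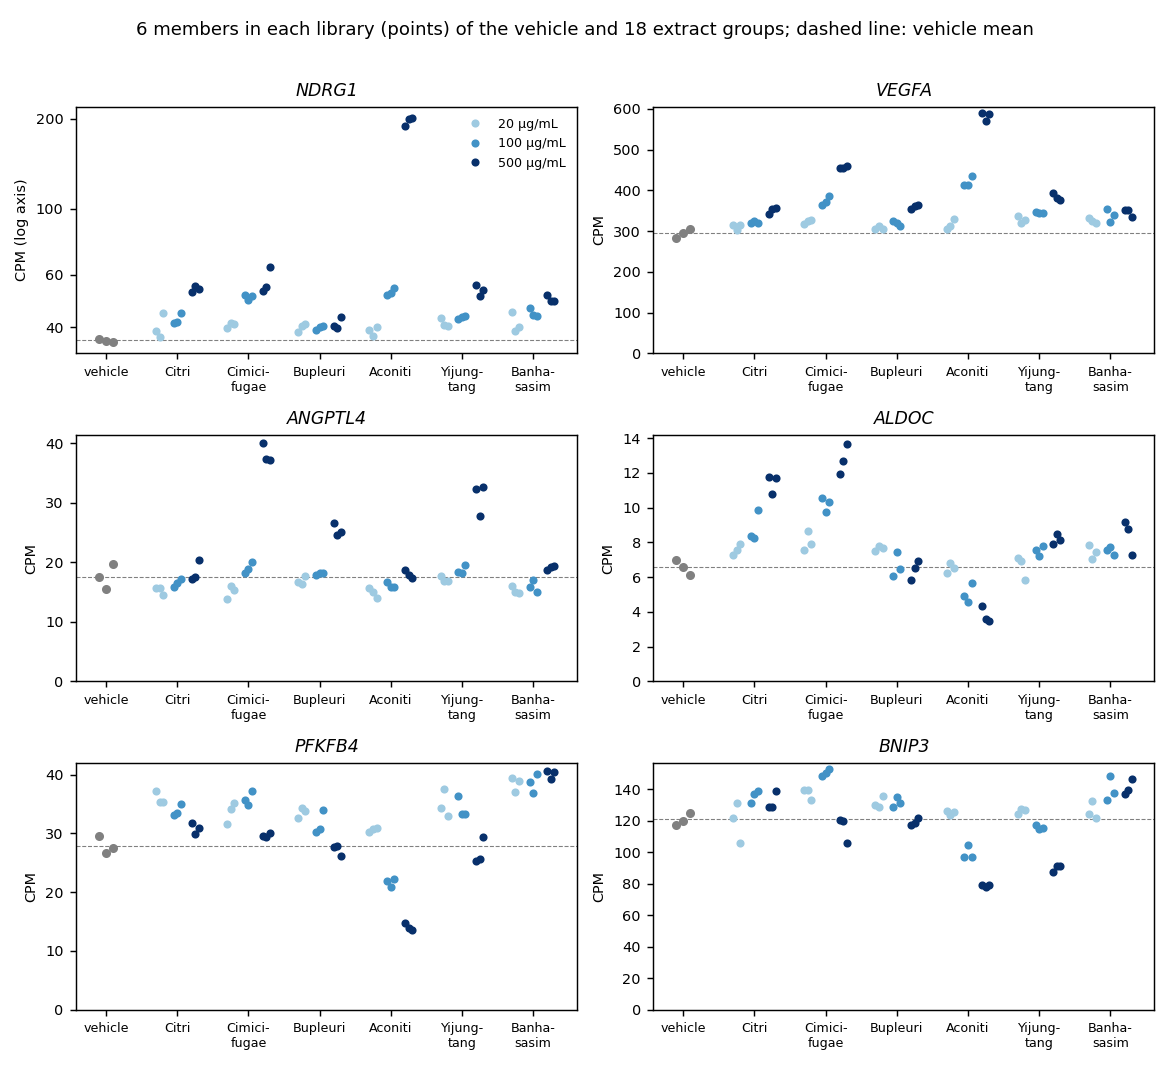
CPM (y axis, logarithmic for NDRG1) of 6 members in each library of the vehicle and of 6 extracts at 20, 100 and 500 µg/mL (x axis); the dashed line is the vehicle mean. NDRG1 is highest with Aconiti at 500 µg/mL (189, 199.6 and 202 CPM), and ANGPTL4 with Cimicifugae (40.1, 37.3 and 37.3 CPM).

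Direct comparisons at the high dose were made within a code set. Citri Unshius Pericarpium against Cimicifugae Rhizoma called 16 members, 13 higher and 3 lower (12.3% of all genes). ANGPTL4 was lower with Citri Unshius Pericarpium, at 17.1, 17.6 and 20.4 CPM, without overlap and with a log2 difference of -1.05 ± 0.0611 (adjusted p = 1.13e-18). VEGFA (-0.38 ± 0.0309) and MXI1 (-0.25 ± 0.0674) were lower too. PGK1 (0.27 ± 0.0381), PFKFB3 (0.27 ± 0.0358), EGLN3 (0.36 ± 0.0986) and SLC16A3 (0.31 ± 0.0825) were higher with Citri Unshius Pericarpium. Without the libraries that stand apart, ANGPTL4 was at -1.07 ± 0.0655, VEGFA at -0.37 ± 0.0333 and PGK1 at 0.21 ± 0.0292, while EGLN3 and SLC16A3 were not called (adjusted p = 0.057 and 0.0593). A fit of these groups alone called 3 members, beside 267 genes in all.

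Bupleuri Radix against Aconiti Lateralis Radix Preparata called 31 members, 19 higher and 12 lower (58.3% of all genes). HKDC1 was at 1.51, 2.902 and 3.06 CPM with Bupleuri Radix, below every library of the other extract (log2 difference -4.53 ± 0.127, adjusted p = 2.18e-33). NDRG1 (-2.26 ± 0.0512), ADM (-1.23 ± 0.0727) and SLC2A3 (-1.14 ± 0.0363) were lower too. EGLN3 (2.68 ± 0.151), PFKFB4 (0.96 ± 0.0602), LDHA (0.91 ± 0.0272) and ALDOC (0.77 ± 0.105) were higher with Bupleuri Radix. None of these 8 members had overlapping groups, but they were picked for the largest differences. Overlap was not counted over all genes.

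Yijung-tang against Banhasasim-tang called 21 members, 6 higher and 15 lower (23.8% of all genes). BNIP3 was lower with Yijung-tang, by a log2 difference of -0.65 ± 0.0479 (adjusted p = 2.12e-15), and PFKFB4 (-0.58 ± 0.0513), ENO2 (-0.39 ± 0.0425) and PDK1 (-0.34 ± 0.0649) were lower as well. ANGPTL4 was higher with Yijung-tang by 0.69 ± 0.0617 (adjusted p = 1.04e-12), followed by BHLHE40 (0.23 ± 0.0496), SLC2A3 (0.19 ± 0.0379) and PFKM (0.15 ± 0.0515, adjusted p = 0.025). The call of PFKM was lost when the first or the third library of Banhasasim-tang or the third of Yijung-tang was left out (adjusted p = 0.0947 to 0.147).

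**Figure D5:**
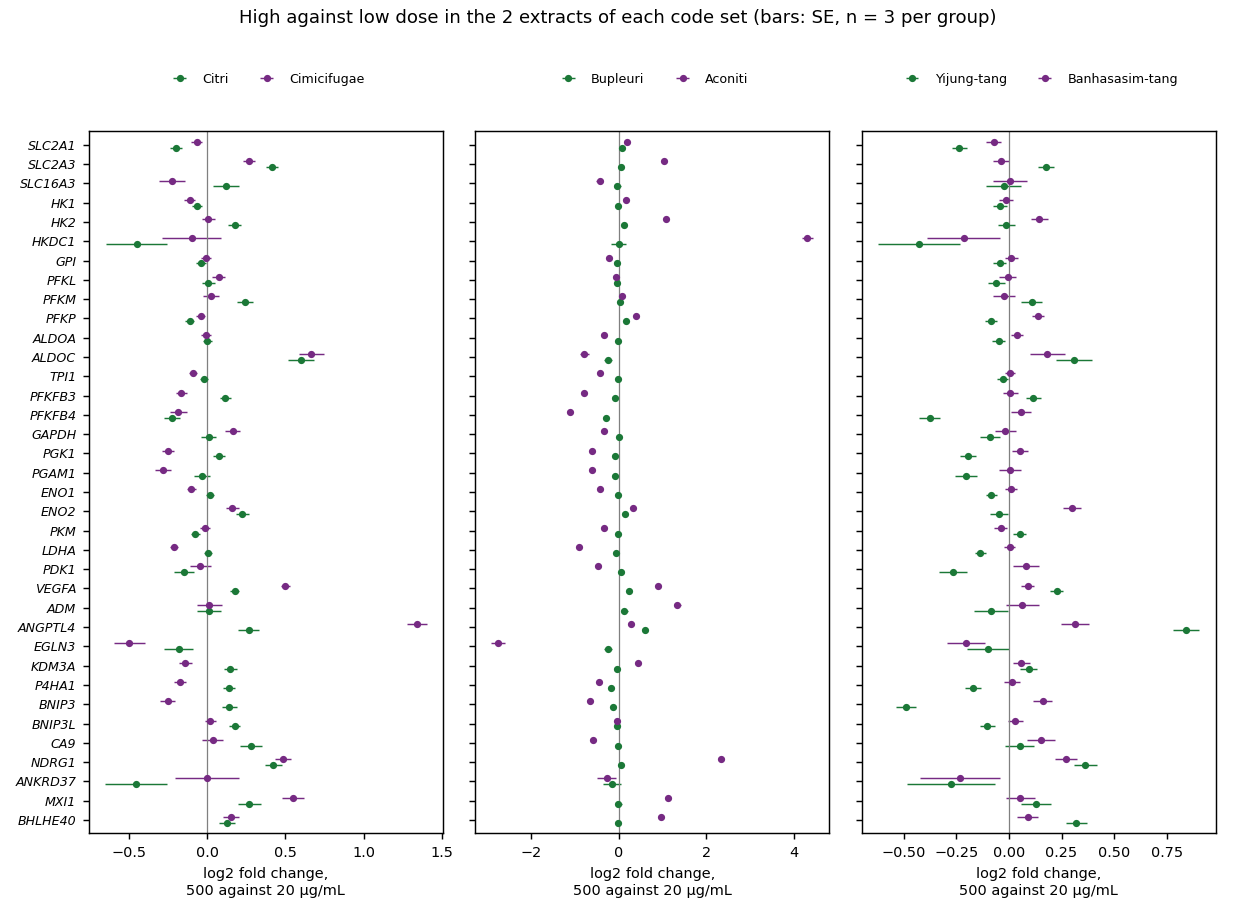
Log2 fold change of 500 against 20 µg/mL (x axis) for the 36 members (down the side) in the extracts of each code set, with SE bars (n = 3 per group); each panel holds the extracts of 1 set. HKDC1 lies at 4.31 with Aconiti and 0.00 with Bupleuri, and BNIP3 at -0.49 with Yijung-tang and 0.16 with Banhasasim-tang.

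The response from low to high dose itself differed within each code set, as the plot of high against low dose shows. By an interaction test, Citri Unshius Pericarpium and Cimicifugae Rhizoma differed in 14 members (12 higher with Citri Unshius Pericarpium, 2 lower, 11.1% of all genes), Aconiti Lateralis Radix Preparata and Bupleuri Radix in 32 (19 higher with Bupleuri Radix and 13 lower, 44% of all genes), and Yijung-tang and Banhasasim-tang in 13 (4 higher with Yijung-tang and 9 lower, 10.1% of all genes). Without the 2 libraries that lie apart the first count was 9.

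Other genes of the pathway were counted in lists set beside the members, for the high dose of Aconiti Lateralis Radix Preparata against the vehicle (60.4% of all genes called). Of 9 HIF subunits and oxygen sensors tested, 5 were higher and 2 lower. CITED2, which competes with HIF for a coactivator, rose by 0.91 ± 0.0661 and EPAS1, the HIF-2 subunit, by 0.47 ± 0.0376, while the oxygen sensor EGLN1 fell by 0.83 and ARNT2 by 0.28. Of 32 other hypoxia-response genes, 16 were higher and 11 lower, led by the lipid droplet coat PLIN2 (3.15 ± 0.0371) and MAFF (2.06 ± 0.0654) and by PPFIA4 (-1.94 ± 0.107) and RAB20 (-1.17 ± 0.146). All of the 6 tested genes of gluconeogenesis and the serine branch were called, 5 higher and 1 lower. PCK2, the mitochondrial PEP carboxykinase, rose by 2.33 ± 0.0746 and PSAT1, of serine synthesis, by 2.05 ± 0.0575, and SHMT1 fell by 0.60. The list's median was 1.28 on the log2 scale.

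In the pentose phosphate pathway, the branch that makes NADPH, 6 of 7 genes were higher and 0 lower (PGLS 0.47 ± 0.072, PGD 0.36 ± 0.0429). Galactose entry and glycogen genes split into 4 higher and 5 lower of 12, with PPP1R3C (0.79 ± 0.0663) up and the glycogen synthase GYS1 (-0.87 ± 0.0604) and the galactokinase GALK1 (-0.47 ± 0.0639) down. Pyruvate oxidation genes split into 5 higher and 4 lower of 13. PDP1, a phosphatase that activates pyruvate dehydrogenase, rose by 0.75 ± 0.0379, PDK4, which inactivates it, by 0.61 ± 0.234, and PDK3 and the carboxylase PC fell by 0.85 and 0.67. Of 14 other glycolytic isoforms tested, 4 were higher and 7 lower, with ENO3 at 0.96 ± 0.309 and SLC2A12 at -1.76 ± 0.181.

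The same lists were counted at the high dose of the other extracts, where 32.5% (Cimicifugae Rhizoma), 7.02% (Bupleuri Radix), 32% (Yijung-tang), 16.8% (Banhasasim-tang) and 21.6% (Citri Unshius Pericarpium) of all genes were called. Pentose phosphate genes were higher in 5 of 7 with Cimicifugae Rhizoma (1 lower), 4 with Bupleuri Radix, 4 with Yijung-tang, 1 with Banhasasim-tang and 0 with Citri Unshius Pericarpium. EPAS1 rose with Citri Unshius Pericarpium (0.46 ± 0.0375), Yijung-tang (0.41 ± 0.0375), Cimicifugae Rhizoma (0.29 ± 0.0375) and Banhasasim-tang (0.20 ± 0.0375). PDK4 rose by 1.28 ± 0.217 with Yijung-tang, 1.20 ± 0.216 with Cimicifugae Rhizoma and 1.09 ± 0.219 with Citri Unshius Pericarpium. The other hypoxia-response genes were 14 higher and 1 lower of 32 with Banhasasim-tang, 10 and 2 with Citri Unshius Pericarpium, 9 and 5 with Cimicifugae Rhizoma, 9 and 7 with Yijung-tang and 4 and 1 with Bupleuri Radix.

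Bojungikgi-tang, with 1 library per dose, allowed no test and no replicate check. At the high dose none of the 36 members was 1.5-fold from the vehicle mean. ALDOC was at 9.73 CPM (1.48 times the vehicle mean), PFKFB4 at 37.9 CPM (1.36 times), NDRG1 at 47.7 CPM (1.32 times) and ENO2 at 65.4 CPM (1.28 times). SLC2A1 was at 151 CPM (0.91 times), below each vehicle library. NDRG1 was at 39.03, 43.02 and 47.7 CPM at the low, medium and high dose, and ALDOC at 7.205, 7.79 and 9.73 CPM.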

How the data were processed

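RNA from 60 libraries of SW1783 cells was read by directional mRNA sequencing, paired end, per the labels' protocols. The values deposited by the authors are expected counts per gene, not scaled between libraries. The submitters' processing notes name RSEM 1.3.3, STAR 2.7.3a, FastQC 0.11.9 and Trim Galore 0.6.5, and the builds hg38 and GRCh38. Annotation release and strand setting: not given in the sources used here. A gene and an overlapping partner may thus share reads. Of the values, 9.22% were not whole, and all were rounded. Gene IDs were matched to symbols with a reference table (56558 of 60675).

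Groups follow the sample titles. One edgeR 4.0.16 quasi-likelihood model (R 4.3.3, limma 3.58.1) held the 57 libraries of 19 replicated groups (38 residual degrees of freedom, biological coefficient of variation 0.0402), after filterByExpr by group and TMM scaling. Benjamini-Hochberg adjustment ran over 17190 genes, with calls at an adjusted p under 0.05. Levels are TMM-scaled CPM, except those of markers, which are CPM of plain library totals. The code was tested on simulated data. Replicate pairs differed beyond sampling noise (chi-square per degree of freedom 1.74 to 22, counts of at least 20), so none was merged. The alternatives were another scaling, DESeq2 1.42.0, no filter, separate fits, replicate blocks, a 1.5-fold minimum, plain library totals for CPM, and leaving out libraries.

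The members and lists were chosen with earlier results of these data known. Named members are, per extract, up to 4 in each direction with the largest change at the high dose, called against both vehicle and low dose, at 5 CPM or more. Between extracts and for interactions they are up to 4 in each direction, and in other lists up to 2. A member was followed to other doses and extracts as needed. All extracts share the 3 vehicle libraries.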

Additional observations from a re-analysis of the deposited data

Results flagged for a closer look

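For the extracts of each code set, the response from low to high dose was compared directly (an interaction term in the same model), and the members below differed between the extracts. Values are the log2 response of the first extract minus that of the second ± SE, with adjusted p. All of these libraries are extract libraries of 1 code set, and the vehicle does not enter the contrast.

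Citri Unshius Pericarpium and Cimicifugae Rhizoma differed in 14 members (12 higher, 2 lower, 11.1% of all genes called). ANGPTL4 (-1.07 ± 0.0947, adjusted p = 7.44e-12) and VEGFA (-0.33 ± 0.0439, adjusted p = 9.67e-07) were lower in response with Citri Unshius Pericarpium. BNIP3 (0.39 ± 0.0668, adjusted p = 6.71e-05), PGK1 (0.32 ± 0.0538, adjusted p = 5.54e-05), P4HA1 (0.32 ± 0.0544, adjusted p = 8.62e-05) and SLC16A3 (0.34 ± 0.117, adjusted p = 0.0469) were higher in response. Without both libraries that stand apart the count was 9, and without either of them alone it was 8. It was 9 without the first low-dose library of Cimicifugae Rhizoma or the second or the third high-dose library of Citri Unshius Pericarpium. Without both, SLC16A3 was at 0.05 ± 0.0753 (adjusted p = 0.839), ANGPTL4 at -1.13 ± 0.104, BNIP3 at 0.26 ± 0.058 and PGK1 at 0.19 ± 0.0412. A fit of these groups alone did not call BNIP3 (adjusted p = 0.0946), P4HA1 (0.0878), PGK1 (0.111) or SLC16A3 (0.344).

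Bupleuri Radix and Aconiti Lateralis Radix Preparata differed in 32 members (19 higher, 13 lower, 44% of all genes called). HKDC1 (-4.31 ± 0.233, adjusted p = 3.4e-21), NDRG1 (-2.30 ± 0.0763, adjusted p = 1.63e-29), ADM (-1.21 ± 0.112, adjusted p = 4.42e-13) and MXI1 (-1.13 ± 0.102, adjusted p = 2.75e-13) were lower in response with Bupleuri Radix. EGLN3 (2.51 ± 0.188, adjusted p = 4.91e-16), LDHA (0.84 ± 0.0382, adjusted p = 4.05e-24), PFKFB4 (0.82 ± 0.0804, adjusted p = 2.91e-12) and PFKFB3 (0.71 ± 0.0531, adjusted p = 4.98e-16) fell with Aconiti Lateralis Radix Preparata and were at -0.25 ± 0.0989, -0.07 ± 0.0269, -0.30 ± 0.0527 and -0.10 ± 0.0362 from low to high dose of Bupleuri Radix.

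Yijung-tang and Banhasasim-tang differed in 13 members (4 higher, 9 lower, 10.1% of all genes called). BNIP3 (-0.65 ± 0.0667, adjusted p = 3.67e-10), PFKFB4 (-0.44 ± 0.0709, adjusted p = 1.77e-05), ENO2 (-0.35 ± 0.0599, adjusted p = 5.17e-05) and PDK1 (-0.35 ± 0.0901, adjusted p = 0.00825) were lower in response with Yijung-tang. ANGPTL4 (0.53 ± 0.0908, adjusted p = 4.62e-05), SLC2A3 (0.21 ± 0.0532, adjusted p = 0.00576), BHLHE40 (0.23 ± 0.0702, adjusted p = 0.027) and VEGFA (0.14 ± 0.0437, adjusted p = 0.0321) were higher. BHLHE40 was not called when any 1 of 7 libraries was left out (adjusted p = 0.0557 to 0.0803), VEGFA when any 1 of 5 was (0.0689 to 0.129), and PDK1 without the second high-dose library of Banhasasim-tang (0.061). SLC2A3 and VEGFA were not called in a fit of these groups alone (adjusted p = 0.083 and 0.109) or with no filter on low counts (0.186 and 0.275).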

How the results depend on the processing

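Another scaling (median of ratios) kept each of the 30 counts of members called within 1.5 times. It moved the median change of all genes by less than 0.1, but both scalings centre that median, so this is no check. TMM factors were 0.9173 to 0.9222 at the high dose of Aconiti Lateralis Radix Preparata and 1.003 to 1.009 in the vehicle. With plain library totals the log2 changes between these groups would thus be lower for every gene, and no test was run with plain totals. The replicate numbers paired no samples: in 0 of 27 comparisons did all same-numbered pairs correlate above 0.1 (r from -0.0613 to 0.0713 over 5000 genes). With a replicate block the counts stayed within 1.5 times in 18 of 18 and 12 of 12 comparisons, for example 32 members for Aconiti Lateralis Radix Preparata at the high dose. The cause of the changes that follow was not tested.

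Requiring 1.5-fold as well left, in the order Citri Unshius Pericarpium, Cimicifugae Rhizoma, Bupleuri Radix, Aconiti Lateralis Radix Preparata, Yijung-tang, Banhasasim-tang, 1, 5, 0, 17, 1 and 0 members at the high dose, 0, 1, 0, 2, 0 and 0 at the medium dose, 0 each at the low dose, and 1, 2, 1, 17, 1 and 0 for high against low dose. It left 1, 16 and 2 between extracts and 1, 12 and 1 for the interactions, each in the order of the code sets. Of all genes, 2.61%, 4.23%, 0.884%, 23.6%, 4.85% and 1.98% passed this rule at the high dose against the vehicle, in the order of extracts above. For the other comparisons the share of all genes is not given here, so those counts of members cannot be judged against it. A fit of the compared groups alone called 10 (Cimicifugae Rhizoma high), 11 (Cimicifugae Rhizoma high against low), 10 (Citri Unshius Pericarpium high against low), 10 (Citri Unshius Pericarpium medium), 0 (Citri Unshius Pericarpium low), 3 (Citri Unshius Pericarpium against Cimicifugae Rhizoma) and 2 (their interaction). Over all genes these fits called, in the same order, 2866, 1567, 1063, 727, 0, 267 and 128. With no filter on low counts Aconiti Lateralis Radix Preparata at the low dose and Bupleuri Radix at the medium dose each called 1, and DESeq2 called 4 for the latter. Over all genes these called 462, 199 and 90. Without both libraries that stand apart, Aconiti Lateralis Radix Preparata and Cimicifugae Rhizoma at the low dose called 5 each (574 and 338 genes in all). The Citri Unshius Pericarpium and Cimicifugae Rhizoma interaction called 9 (428 genes in all), and its BHLHE40 value turned from -0.03 to 0.17 ± 0.0491 (adjusted p = 0.0418).

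Leaving out single libraries gave 5 to 7 members for Bupleuri Radix at the high dose, 1 at its medium and 0 to 1 at its low dose. The low-dose ranges were 1 to 2 for Citri Unshius Pericarpium, 1 to 3 for Cimicifugae Rhizoma, 1 to 4 for Aconiti Lateralis Radix Preparata and 2 to 5 for Yijung-tang, and the Citri Unshius Pericarpium and Cimicifugae Rhizoma interaction ran from 8 to 16. For fits without a single library, here and above, the share of all genes called is not given. Those counts of members cannot be judged against it. Of the member calls over all comparisons, fitting the compared groups alone kept 345 and lost 78, the other scaling lost 1, DESeq2 5, no filter 50 and leaving out both libraries 21. Depth limits the members with low counts: the lowest group means were 0.956 CPM for EGLN3, 1.68 for HKDC1 and 2.75 for ANKRD37.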

Other observations

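Several members did not follow the dose in order. With Aconiti Lateralis Radix Preparata, KDM3A fell at the medium dose (34.4, 34.5 and 32.3 CPM against 37.5, 39.8 and 37.2 CPM in the vehicle, log2 change -0.18 ± 0.0435) and rose at the high dose (49.5, 53.04 and 50.3 CPM, 0.42 ± 0.0417). SLC2A1 did the same with smaller values (-0.09 ± 0.0364 at the medium and 0.19 ± 0.0361 at the high dose), and the groups did not overlap in either gene. With Cimicifugae Rhizoma, BNIP3 rose at the low (0.18 ± 0.0476) and medium dose (0.32 ± 0.0471) and then fell from the low to the high dose (-0.25 ± 0.0472 with all libraries, -0.20 ± 0.0411 without those that stand apart). These members were picked after their values were seen.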
